A study of Mus musculus with 2 samples.

Results

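Conventional natural killer (NK) cells were chosen by their UMI counts of named genes in single-cell RNA sequencing of mouse prostate, and numbered 390 of the 13977 cells kept from 2 libraries. A member had at least 3 UMIs (unique molecular identifiers, which count captured molecules) summed over Eomes, Prf1, Klra8, Klra4 and Klre1, and at least 1 UMI of Ncr1, Klrb1c or Klrd1. It also had at most 1 UMI of the T cell receptor chains Cd3d, Cd3e and Cd3g, no Cd8a UMI and under 10 UMIs of the granzymes Gzmc and Gzmf. Complement C1q genes and the calprotectin genes S100a8 and S100a9, which mark macrophages and neutrophils, each had to stay under 0.2% of the cell's UMIs. The levels of these genes in the members are therefore a description of the choice and support nothing.

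The normal adjacent group was 1 library of prostate tissue lying next to tumour and gave 220 members. The tumour group was 1 library of prostate tumour and gave 170. In both groups the tissue was digested with collagenase and trypsin, and leukocytes (CD45+) and CD45- cells were sorted and run together. The labels give no strain, genotype, tumour model, treatment, age or number of animals, and title the first library healthy although its tissue type is normal adjacent. With 1 library per group there was no replicate and no test. Ranges in parentheses are 95% intervals and account for counting error alone. Of each pair of values the first belongs to normal adjacent tissue and the second to tumour.

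NK cells are innate lymphocytes that kill infected or transformed cells without a rearranged antigen receptor. They weigh signals from activating receptors such as NKp46 (Ncr1) against inhibitory receptors for MHC class I, many of them in the Ly49 (Klra) family of mice, and kill by releasing perforin and granzymes. Conventional NK cells depend on the T-box factor Eomes and recirculate through blood, whereas the related type 1 innate lymphoid cells (ILC1) stay in tissues.

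The 2 libraries held 77855775 and 92188538 UMIs in 6553 and 8237 barcodes, of which 344 and 469 were dropped for having under 200 genes or over 20% mitochondrial UMIs. The libraries shared 18 barcodes, and 1 member of each library had one of them. The members had medians of 5413.5 and 4681 UMIs, and 1962.5 and 1776 genes, per cell. Their pooled counts came to 1386595 and 1001834 UMIs. Levels are in CPM, the usual scaling of a gene's summed UMIs by all summed UMIs of the pooled cells. The reads come from transcript ends, so levels are compared between groups of cells and not between genes.

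Receptor genes with a promoter in RefSeq (assembly GRCm38.p6) are shown first, because the Ly49 gene cluster supplied 2 of the genes of the choice and Ncr1 is the receptor that marks NK cells. Each runs from 250 bases before to 50 after the gene's start, 5′ to 3′. Capitals mark the RUNX core TGTGGT or the T-box core GGTGTG on either strand (ACCACA or CACACC on the strand shown), the short motifs of the Runx3 and Eomes factor families.
Ncr1, chr7:4337465-4337764, plus strand: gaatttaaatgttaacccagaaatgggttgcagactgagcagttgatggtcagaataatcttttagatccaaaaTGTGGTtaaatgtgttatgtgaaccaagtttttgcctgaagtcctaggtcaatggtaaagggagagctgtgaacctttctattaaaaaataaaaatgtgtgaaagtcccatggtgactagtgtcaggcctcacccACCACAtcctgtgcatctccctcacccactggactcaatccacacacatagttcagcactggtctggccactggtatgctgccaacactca
Klra4, chr6:130067222-130067521, minus strand: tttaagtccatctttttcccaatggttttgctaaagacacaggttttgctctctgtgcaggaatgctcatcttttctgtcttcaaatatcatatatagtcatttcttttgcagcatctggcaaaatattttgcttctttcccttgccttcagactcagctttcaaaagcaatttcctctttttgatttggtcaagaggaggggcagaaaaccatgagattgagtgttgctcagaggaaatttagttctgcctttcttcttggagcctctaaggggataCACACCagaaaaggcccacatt
Klra8, chr6:130129849-130130148, minus strand: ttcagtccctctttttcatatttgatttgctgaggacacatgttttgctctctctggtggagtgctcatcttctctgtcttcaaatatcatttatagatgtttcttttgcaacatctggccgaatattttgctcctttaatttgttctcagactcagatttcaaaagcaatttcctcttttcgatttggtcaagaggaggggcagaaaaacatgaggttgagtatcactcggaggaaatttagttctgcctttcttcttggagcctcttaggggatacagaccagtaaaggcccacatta
The Ncr1 window held 2 RUNX cores, a motif found in 16.8% of 32851 promoter windows. The Klra4 window held 1 T-box core, found in 19.0% of windows, and the Klra8 window neither motif. The Klra4 and Klra8 windows were 86.0% identical, the highest of 36 pairs among 9 Ly49 genes, whose median was 47.8%. A match of letters is a description and shows no binding.

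Genes outside the choice were used to check the name. Gzma, a granule protease outside the choice, stood at 5733 CPM in normal adjacent members and 4401 CPM in tumour members. In T lymphocytes of the same libraries (cells with at least 2 Cd3 UMIs and CD8, CD4 or Trdc transcripts) Gzma stood at 1024 and 126 CPM, and in B lymphocytes at 19.2 and 11.6 CPM. Tyrobp is an adaptor that couples NK receptors to signalling. After each cell was thinned to 2000 UMIs it had a UMI in 97.2% and 98.2% of members (99.1% and 100% without thinning). In B lymphocytes the shares were 25% and 20.5% (47.5% and 42.5% unthinned). Thinned lymphocytes rich in Gzmc and Gzmf (at least 10 UMIs of these genes, with no limit on Cd3 or Cd8a) had it in 94.7% and 94.8% of cells. In other thinned CD3-low lymphocytes with NK receptors the shares were 93.02% and 82.35%. Most cells of these classes thus had Tyrobp too, so it does not tell conventional NK cells from them. For description only, since the choice used them, Eomes was at 387 and 437 CPM in members and 38.8 and 30.9 CPM in T lymphocytes, and Ncr1 at 190 and 246 CPM in members. Thinning left out 7 and 4 members, and B lymphocytes had medians of 4847 and 4895 UMIs.

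**Figure D1:**
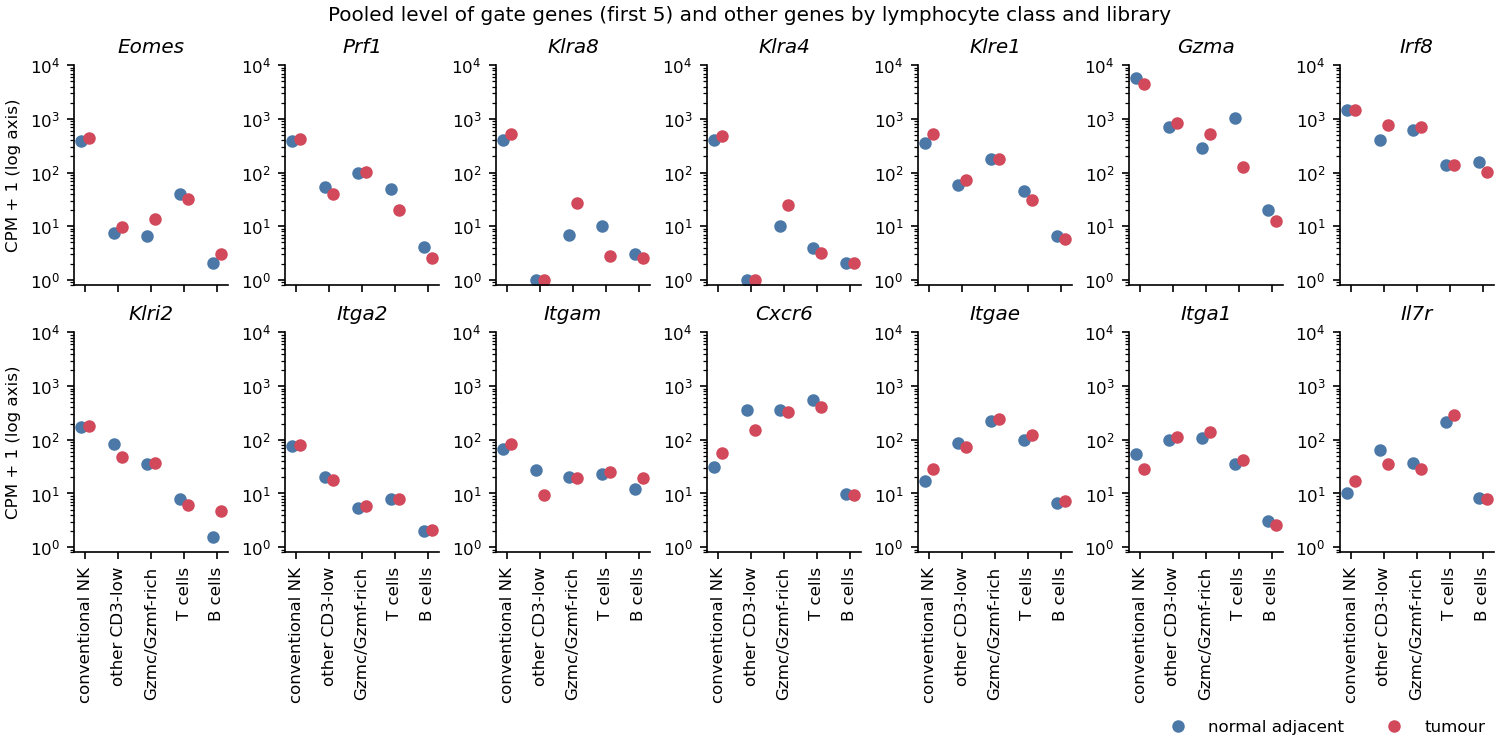
Pooled level of 14 genes (CPM + 1, log axis) in 5 lymphocyte classes (horizontal axis), 1 point per library and class. The first 5 panels are genes of the choice, Gzma, Irf8, Klri2, Itga2 and Itgam are highest in conventional NK cells in both libraries, and Cxcr6, Itgae and Il7r lie below the T cell points.

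The choice had a soft lower edge. The summed UMIs of the 5 genes had a median of 11 in both libraries, with ranges of 3 to 37 and 3 to 55, and 58.2% and 61.2% of members had 10 or more. Just inside the threshold, with 3 UMIs, lay 14 and 8 members, with Gzma at 3498 and 799 CPM. Just outside, with 2 UMIs, lay 18 and 16 cells, with Gzma at 673 and 1171 CPM. Cd74, an antigen presentation gene of B and myeloid cells, stood at 948 and 11126 CPM just inside and 19774 and 12180 CPM just outside. In members with 10 or more UMIs it stood at 2413 and 1344 CPM, so the tumour cells just inside were high in it and the normal adjacent ones were not.

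Fewer of the cells in the tumour library met the choice. Members were 12.6% (11.1 to 14.2) of the 1748 gated lymphocytes of the normal adjacent library and 10.4% (8.98 to 12) of the 1632 of the tumour library. The difference was -2.17 points (-4.32 to -0.0116), and its interval reached above 0 when members needed 2 UMIs (-4.43 to 0.0156), 4 UMIs (-3.94 to 0.260) or 0 Cd3 UMIs (-3.0 to 1.06). It also did with cells thinned to 2000 UMIs (-3.89 to 0.889) and without the 5% of members with most UMIs (-4.22 to 0.0082). Without members that carried at least 3 UMIs of another cell type's markers, 17 and 20 members were left and the difference was 0.249 points (-0.559 to 1.08). In that alternative only H2-Aa, H2-Ab1 and H2-Eb1 served as dendritic markers, and mast cell markers were not used. Among all cells kept the members were 3.54% and 2.19%, a difference of -1.35 points (-1.93 to -0.799), but the proportions in which CD45+ and CD45- cells were mixed bear on that share. Among the cells with a UMI of the leukocyte gene Ptprc they were 4.31% and 2.67%, a difference of -1.64 points (-2.34 to -0.965). Over the same cells, lower shares in tumour were also found for lymphocytes rich in Gzmc and Gzmf (-1.39 points, -2.20 to -0.584), CD8 T (-2.32), CD4 T (-0.543), other CD3-low (-0.443) and B lymphocytes (-2.38), and Trdc T lymphocytes differed by 0.554 points (-0.291 to 1.39). Among lymphocytes, Trdc T lymphocytes made up 17.8% and 25.7%, and B lymphocytes made up 17.3% and 12.7%. Lymphocytes rich in Gzmc and Gzmf, which carry NK receptors, made up 16.6% and 16.9%.

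**Figure D2:**
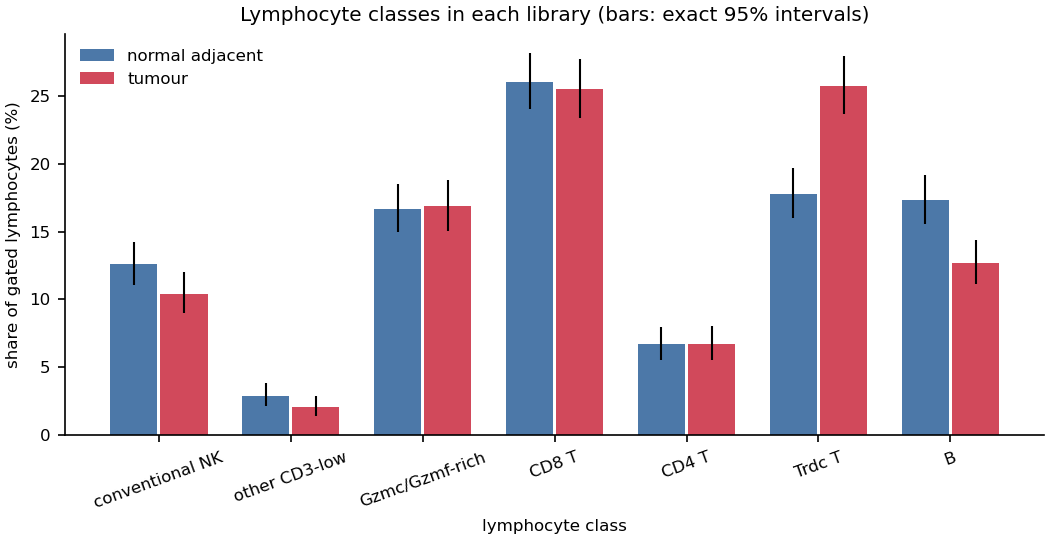
Share of gated lymphocytes (percent, vertical axis) in each of 7 classes for both libraries, with exact intervals that cover counting error only. Conventional NK cells made up 12.6% and 10.4%.

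Against T lymphocytes of the same library, the members had high levels of Klri2, Irf8 and Nrarp and low levels of Cxcr6, Icos and Rora. Of 5275 genes with at least 50 UMIs in members, 178 (3.37%) were at least 2-fold higher than in T lymphocytes in both libraries and 109 (2.07%) at least 2-fold lower. Irf8, a transcription factor of NK, myeloid and B cells, was 11-fold (10.2 to 11.9) higher in normal adjacent tissue, at 1487 against 135 CPM, and 10.5-fold (9.70 to 11.4) higher in tumour, at 1434 against 136 CPM. It had a UMI in 82.2% and 79.5% of thinned members (93.2% and 91.2% unthinned) and in 22.3% and 21.0% of thinned B lymphocytes (48.5% and 42.5% unthinned). Nrarp, a regulator of Notch signalling, was 12.5-fold (10.6 to 14.9) and 12.3-fold (10.1 to 14.9) higher. Klri2, a lectin receptor that pairs with Klre1, was 24.9-fold (18.4 to 34.4) and 34.7-fold (24.5 to 50.1) higher. Each of these genes was high in both libraries, and none belonged to the choice.

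Several of the genes that stood highest against T lymphocytes were found in a minority of members. Serpinb9b, a serpin of the granzyme inhibitor family, had the ratios 218 (72.8 to 1072) and 162 (52.9 to 805), from 27 of 220 and 20 of 170 members. Adamts14, a metalloprotease, was 32.6-fold and 44.0-fold higher, from 40 and 35 members. Phactr3, Eya1, Arl4d and Styk1 were also among the first 12. Cd79a, a B cell receptor chain, entered that ranking from 5 and 7 members, 1 of which held 33.3% and 46.8% of its UMIs. Lower than in T lymphocytes were the receptor genes Trdc and Trac, which the CD3 limit bears on. Trdc transcripts also defined part of the T lymphocytes. Also lower were Cxcr6, at 29.6 against 551 and 55.9 against 399 CPM, the costimulator Icos, the receptor subunit Ramp1, the transcription factor Rora, the adaptor Lat and Krt83.

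Ly49 receptors, many but not all of which read MHC class I on other cells, were spread unevenly over the members. Klra8 (Ly49H) and Klra4 (Ly49D) belonged to the choice, and had a UMI in 41.3% and 50.0%, and in 42.7% and 41.0%, of thinned members. Klra7 (Ly49G) was outside it and had a UMI in 35.7% and 34.3% of thinned members (50.5% and 54.7% without thinning), compared with 0.685% and 0.488% of B lymphocytes (2.64% and 0.483% unthinned). Klra9 was found in 28.6% and 24.1%, Klra3 in 23.9% and 20.5% and Klra1 in 7.04% and 6.02%. Thinned lymphocytes rich in Gzmc and Gzmf had Klra7 in 13.4% and 14.4% of cells. Klra1 was more frequent there than in members, at 10.9% and 12.5%. So was Klra5, at 9.15% and 12.5% against 1.41% and 1.20% of members. The median member had UMIs of 2 Ly49 genes, none had more than 5, and 13.1% and 13.9% had none at this depth. Klra4 and Klra8 were counted among these genes, so the choice bears on these numbers and on the shares of that pair. Klra4 and Klra8 occurred together in 19.7% and 27.1%, Klra4 without Klra8 in 23.0% and 13.9% and Klra8 without Klra4 in 21.6% and 22.9%.

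Counts of close Ly49 relatives can be split between copies, so single members of the family are uncertain. The last 300 bases of the Klra3 and Klra9 transcripts were 98.7% identical, the closest of 36 pairs, and their values cannot be assigned to one or the other with certainty. Those of Klra6 and Klra8 were 85.3% identical and those of Klra4 and Klra8 55.9%. Of the 11 Ly49 genes in the files, 8 had at least 20 UMIs in members. Against lymphocytes rich in Gzmc and Gzmf, 4 of these 8 were 2-fold above in both libraries, where 3.26% of genes were. They were Klra3, Klra9 and, from the choice, Klra4 and Klra8. Klra5 was 2-fold below, where 1.62% of genes were. Klra3, Klra4, Klra7, Klra8 and Klra9 were 2-fold above T lymphocytes in both libraries, where 246 of 7610 genes with at least 20 UMIs (3.23%) were. Their levels in tumour over normal adjacent members had ratios of 1.26 for Klra8 and 1.19 for Klra4, which the choice used, 1.06 (0.918 to 1.22) for Klra7, 1.19 (0.986 to 1.43) for Klra3 and 0.739 (0.605 to 0.899) for Klra9.

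**Figure D3:**
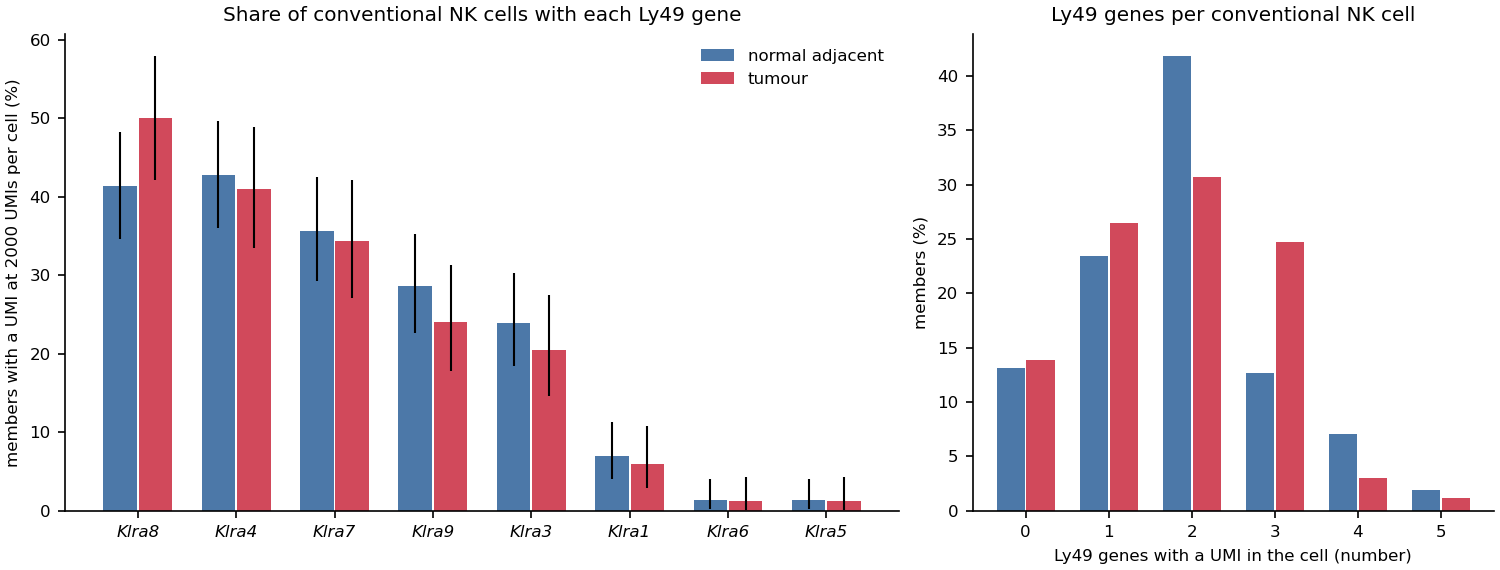
Left, share of conventional NK cells with a UMI of each of 8 Ly49 genes (percent, cells thinned to 2000 UMIs, exact intervals of counting error). Right, number of Ly49 genes with a UMI per cell, as a percent of members. Klra8 and Klra4 were part of the choice, and 2 genes per cell was the most common number in both libraries.

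Of the 11 measured NKG2 and NKR-P1 lectin receptors, 10 were at least 2-fold above T lymphocytes in both libraries and none below, where 3.23% of 7610 genes were above, and 3 of these 10 were genes of the choice. Only 3 of the 11 were 2-fold above the lymphocytes rich in Gzmc and Gzmf, and 4 were above and 2 below the other CD3-low lymphocytes. Klrk1 (NKG2D), which binds stress ligands on tumour cells, stood at 403 and 463 CPM against 110 and 114 CPM in T lymphocytes. Klrc1 (NKG2A), an inhibitory receptor, was the exception, at 90.1 and 73.9 CPM against 49.3 and 17.5 CPM. Among activating receptors and adaptors, 5 of 17 were above, namely Ncr1, which the choice used, and Fcer1g, Tyrobp, Cd244a and Sh2d1b1. Cd247 and Zap70, a signalling chain and a kinase of T cell receptors, were below.

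Residency genes were low in the members. None of 14 measured ILC1 and tissue residency genes was 2-fold above T lymphocytes in both libraries, and 8 were 2-fold below, where 195 of 7610 genes (2.56%) were. The 8 were Itgae, Cd69, Cxcr6, Il7r, Rora, Cd200r1, Tmem176a and Tmem176b. Itgae, the integrin of epithelial residence, stood at 15.9 and 27.9 CPM in members, 98.9 and 124 CPM in T lymphocytes and 219 and 243 CPM in the lymphocytes rich in Gzmc and Gzmf. Il7r, the interleukin-7 receptor of ILC1 and T cells, stood at 9.38 and 16.0 CPM in members and 218 and 285 CPM in T lymphocytes. The median log2 ratio of the list to T lymphocytes was -1.54 and -1.20, while that of all 7610 genes was 0.04 in both libraries.

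Klf2, the factor that drives egress genes, stood at 656 and 739 CPM in members, 311 and 322 CPM in T lymphocytes and 131 and 89.4 CPM in the lymphocytes rich in Gzmc and Gzmf. Against the latter class, 7 of 10 recirculation genes were 2-fold above in both libraries, where 3.26% of genes were, and none was below. Against T lymphocytes 3 of 10 were above and none below, and against the other CD3-low lymphocytes 3 were above and 1 below. S1pr1, the receptor that guides exit to blood, was at 24.5 and 19.0 CPM in members, 4.17 and 3.40 CPM in lymphocytes rich in Gzmc and Gzmf and 35.9 and 49.5 CPM in T lymphocytes. It was thus above the first class and below the second. S1pr5, the egress receptor of mature NK cells, was at 11.5 and 4.99 CPM in members, from 13 and 5 cells.

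**Figure D4:**
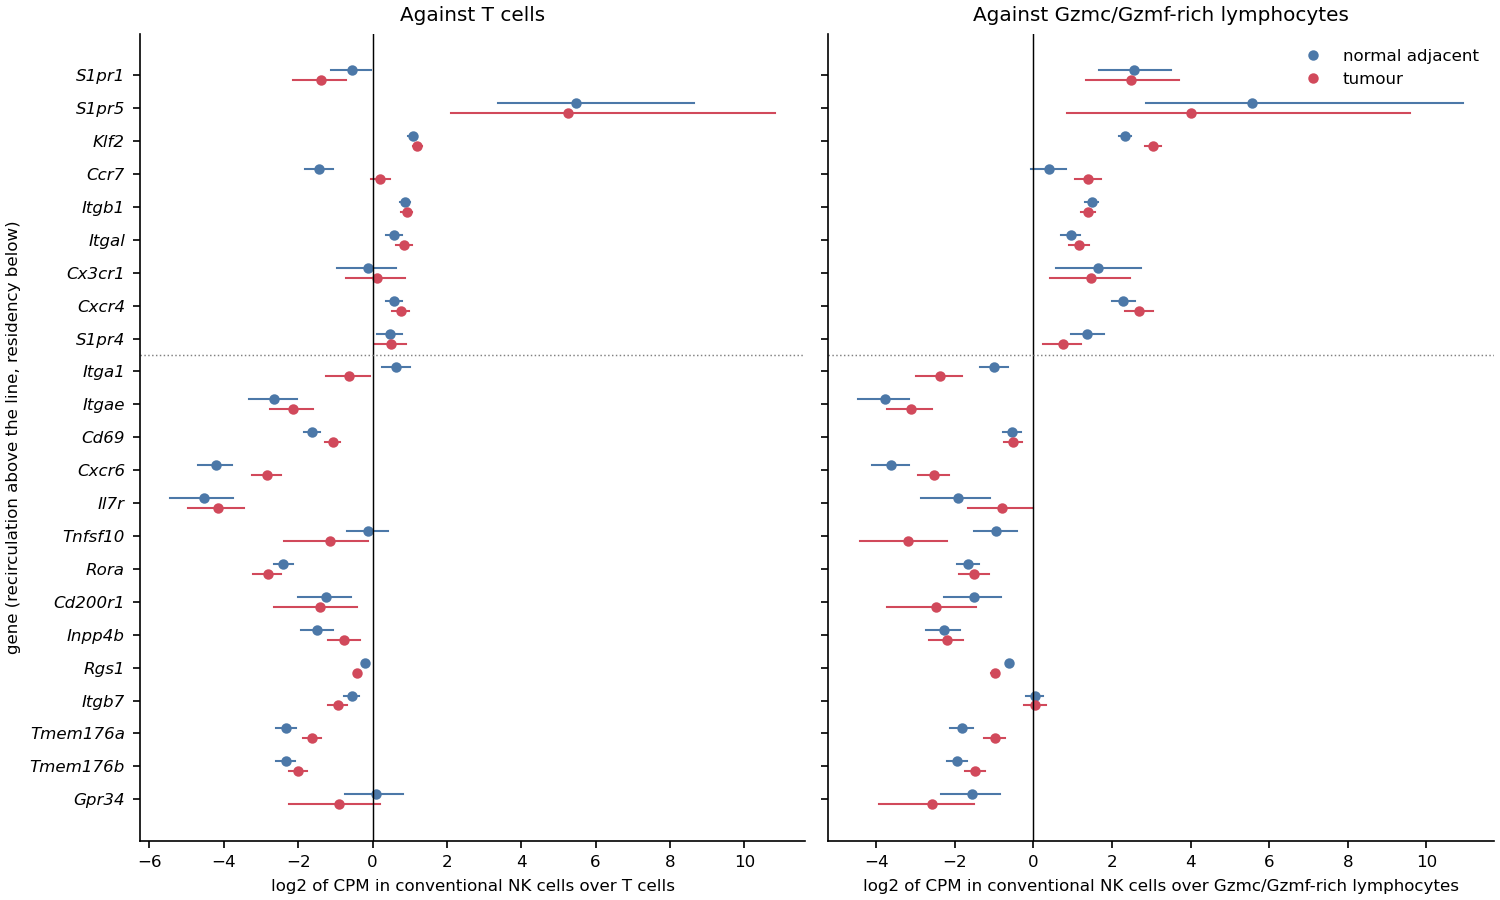
Log2 ratio of CPM in conventional NK cells over T cells (left) and over lymphocytes rich in Gzmc and Gzmf (right) for 9 recirculation genes (above the dotted line) and 14 residency genes (below it) in each library, with exact intervals of counting error. Against T cells the residency genes lie left of 0 except Itga1 and Gpr34 in normal adjacent tissue, and S1pr1 in both libraries and Ccr7 and Cx3cr1 in normal adjacent tissue lie left of 0 among the recirculation genes.

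Against the 566 lymphocytes rich in Gzmc and Gzmf, which shared Ncr1 and Klrb1c with the members, Myb, Itga2 and Gzma were higher in the members and Spp1, Itgae and Gzmb lower. That class had no limit on Cd3 or Cd8a and may hold T cells. Trac had a UMI in 16.9% and 14.4% of its thinned cells (38.5% and 34.5% unthinned). In thinned members the shares were 6.10% and 7.23% (16.8% and 15.9% unthinned). Of 5275 genes, 166 (3.15%) were 2-fold above in both libraries and 75 (1.42%) below. Myb, a transcription factor of progenitors, stood at 75 and 88.8 CPM against 2.70 and 3.71 CPM. Itga2, the integrin CD49b by which conventional NK cells are sorted, stood at 75.7 and 77.9 CPM against 4.41 and 4.95 CPM. Cma1, a chymase listed among late NK maturation genes, was at 114 and 115 CPM against 6.37 and 1.24 CPM, and Pde2a, a cyclic nucleotide phosphodiesterase, was 15.6-fold and 13.9-fold higher.

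The lower genes of that comparison included Spp1 (osteopontin), at 28.8 and 28.9 CPM against 363 and 446 CPM, Itgae, Cxcr6, Sema6d, Inpp4b, Capg, Gsn and the factor Ikzf2, at 56.3 and 69.9 CPM against 388 and 414 CPM. Gzmb was lower in members, at 1170 and 965 CPM against 2742 and 2864 CPM, while Gzma stood at 5733 and 4401 CPM against 290 and 523 CPM. Xcl1, a chemokine for cross-presenting dendritic cells, was lower in members (1411 and 1534 CPM against 2974 and 3371 CPM). Ccl3, Ccl4, Ccl5 and Ifng were 2-fold higher in members in both libraries.

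A further 85 CD3-low lymphocytes had NK receptors but at most 2 UMIs of the 5 genes. Of 5275 genes, 124 (2.35%) were 2-fold higher in the members in both libraries and 57 (1.08%) lower. Klra7 was 9.05-fold (5.01 to 18.3) and 20.1-fold (7.78 to 74.2) higher in the members and Gzma 8.22-fold (7.18 to 9.46) and 5.19-fold (4.51 to 6.02). Rora, a factor of innate lymphoid cells, was at 90.9 and 63.9 CPM in members against 464 and 481 CPM. Itga1 (CD49a), which marks ILC1, was at 54.1 and 27.0 CPM against 97.3 and 111 CPM, and 8 of 14 residency genes were 2-fold below in both libraries, where 1.48% of 7610 genes were. Of 8 Ly49 genes, 6 were 2-fold above, where 4.01% of genes were, but the definition of the other class kept Klra4 and Klra8 low in it. Ikzf2, Tbc1d4, Arrdc4, Krt83, Gcnt2, Cst3 and Osgin1 were also among the first 8 lower, and 1 tumour member held 83.1% of the Tbc1d4 UMIs. H2-Aa and H2-Eb1 ranked among the higher genes, but a limit on them defined the other class. Svs5, a seminal vesicle secretion gene, ranked there too, with 1 member holding 83.3% and 70.5% of its UMIs.

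Maturation genes of early and late stages were both found. Of 12 late maturation genes, 6 were 2-fold above T lymphocytes, where 3.23% of genes were, among them Itgam (CD11b), Cma1 and Ly6c2, and none below. Itgam had a UMI in 12.2% and 16.3% of thinned members (28.2% and 27.1% without thinning), compared with 2.40% and 4.88% of thinned B lymphocytes (6.27% and 9.18% unthinned). Cd27, which less mature NK cells keep, was found in 18.8% and 18.7% (38.6% and 40.0% without thinning), compared with 1.03% and 1.95% of thinned B lymphocytes (3.30% and 4.35% unthinned). Both were found in 1.88% and 1.20% of members and neither in 70.9% and 66.3%, so at this depth most members could not be placed. Of 12 early maturation genes, Ctla2a and Xcl1 were 2-fold above T lymphocytes and Il7r, Ltb, Cxcr3 and Thy1 below, where 2.56% of genes were.

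Killing and chemokine genes varied widely from cell to cell. Gzma ranged from 0 to 45301 CPM per cell in the normal adjacent library with a median of 4916 CPM, and from 0 to 36049 CPM in the tumour library with a median of 4104 CPM. Gzma and Gzmb were found together in 51.6% and 48.2% of thinned members, Gzma alone in 27.2% and 22.9%, Gzmb alone in 6.10% and 7.83%, and neither in 15% and 21.1%. Ccl4, a chemokine of activated NK cells, was concentrated, with 50.6% and 51.4% of its UMIs in the top 1 in 10 members. Nkg7, a granule protein, was even by comparison, with 20% and 22% of its UMIs in the top 1 in 10.

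Between the libraries, Gzma, Gzmb and Ccl5 were lower in tumour members, while Ifng, Odc1, Lgals1 and Ccr2 were higher. Of 5275 genes, 261 (4.95%) were at least 1.5-fold higher in tumour members and 333 (6.31%) at least 1.5-fold lower, together 594 (11.3%). This includes counting error, since 4.59% of unchanged genes passed 1.5-fold either way in simulated counts. The simulation held no differences between cells. Gzma was lower in tumour members with a ratio of 0.768 (0.740 to 0.796), Gzmb with 0.825 (0.761 to 0.894) and Ccl5 with 0.811 (0.790 to 0.832). In T lymphocytes the ratios were 0.123 for Gzma, 1.08 for Gzmb and 0.714 for Ccl5, in lymphocytes rich in Gzmc and Gzmf 1.80, 1.04 and 1.19, and in B lymphocytes 0.602, 0.652 and 0.763, so lower Gzma and Ccl5 were found in T and B lymphocytes too. Prf1 had a ratio of 1.06 (0.935 to 1.21) and Nkg7 of 1.02 (0.972 to 1.08). Of 14 cytotoxic genes, 6 were higher and 8 lower in tumour members, where 47.9% of genes were higher. The death ligand Tnfsf10 alone passed 1.5-fold, at 24.5 and 7.99 CPM from 20 and 6 cells, where 10.2% of genes were 1.5-fold lower. The list's median log2 ratio was -0.12, while that of all 7610 genes was -0.02.

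Of the receptors the choice used, given for description only, Klre1 had a ratio of 1.46, Ncr1 of 1.29, Klrd1 of 1.12 and Klrb1c of 0.962. Outside the choice, Klrk1 had a ratio of 1.15 (1.01 to 1.30). Ifng stood at 215 and 278 CPM, a ratio of 1.30 (1.10 to 1.53), while its ratio was 0.684 (0.626 to 0.749) in T lymphocytes and 0.565 (0.456 to 0.696) in lymphocytes rich in Gzmc and Gzmf. Of 10 measured effector cytokine and chemokine genes, 7 were higher and 3 lower (median 0.12), where 47.9% of 7610 genes were higher. Ltb (1.53, 1.19 to 1.98) alone passed 1.5-fold, where 9.25% of genes were 1.5-fold higher, so 1 gene is near that share.

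The first 12 genes higher in tumour members were led by Odc1, the first enzyme of polyamine synthesis, at 267 and 494 CPM, a ratio of 1.85 (1.62 to 2.12). Its ratio was 0.946 (0.913 to 0.979) in T lymphocytes and 1.28 (1.17 to 1.39) in B lymphocytes. Lgals1 (galectin-1) stood at 896 and 1413 CPM, a ratio of 1.58 (1.46 to 1.70), and was found in 67.1% and 80.1% of thinned members (79.5% and 92.9% without thinning), compared with 16.1% and 15.6% of thinned B lymphocytes (30.0% and 37.2% unthinned). Thinned T lymphocytes had Lgals1 in 66.2% and 68.0% of cells, and lymphocytes rich in Gzmc and Gzmf in 42.3% and 42.1%. Its ratio was 1.02 (0.984 to 1.05) in T lymphocytes, 0.906 (0.846 to 0.971) in lymphocytes rich in Gzmc and Gzmf and 1.32 (1.14 to 1.54) in B lymphocytes. Ccr2, the receptor for monocyte chemoattractants, stood at 88.0 and 158 CPM, a ratio of 1.79 (1.41 to 2.29), and was found in 10.3% and 24.7% of thinned members (30.0% and 40.0% without thinning), compared with 0.685% and 2.93% of thinned B lymphocytes (4.29% and 6.28% unthinned). In thinned T lymphocytes it was found in 16.0% and 25.6% (35.4% and 44.6% unthinned). Zeb2, a factor of late NK maturation, stood at 62.0 and 113 CPM, a ratio of 1.82 (1.36 to 2.44). However, it was found in similar shares of thinned members, 15.5% and 15.7% (25.5% and 30.0% without thinning). Among thinned B lymphocytes the shares were 9.93% and 9.76% (21.8% and 26.6% unthinned). Plac8 stood at 185 and 327 CPM, from 57 and 42 cells. The others were Specc1l, Lcorl, Rab21, Nrf1, Brd8, Tcf4 and Nup210, with ratios of 1.90 to 2.38. Rab21 was higher in the tumour library in T lymphocytes (1.57), lymphocytes rich in Gzmc and Gzmf (2.11) and B lymphocytes (1.49) as well.

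Lower in tumour members was Nop56, a nucleolar protein of ribosome assembly, at 143 and 64.9 CPM, a ratio of 0.454 (0.338 to 0.604). It was lower in the tumour library in T lymphocytes (0.528), lymphocytes rich in Gzmc and Gzmf (0.542) and B lymphocytes (0.332) too. Hopx, a homeodomain protein of effector lymphocytes, stood at 76.4 and 34.9 CPM, a ratio of 0.457 (0.303 to 0.675), and Hes1, a Notch target, at 102 and 50.9 CPM, a ratio of 0.501 (0.356 to 0.694). Hes1 was rare in T lymphocytes, at 8.46 and 9.59 CPM. Ubb, a polyubiquitin gene, had a ratio of 0.705 (0.670 to 0.741) and was lower in T and B lymphocytes of the tumour library too. Of the 12 lower genes, 10 were also lower in T lymphocytes and 10 in B lymphocytes, where 54.7% and 77.5% of 5275 genes were, and 7 and 8 of them had an interval beyond 1. Of the 12 higher genes 6 were also higher in T and 4 in B lymphocytes, where 45.3% and 22.4% of genes were, with 3 intervals beyond 1 in each. Rbpms, Traf4, Glul, Plscr1, Keap1, Osgin1 and Trappc10 were also among the lower genes, with ratios of 0.488 to 0.592.

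**Figure D5:**
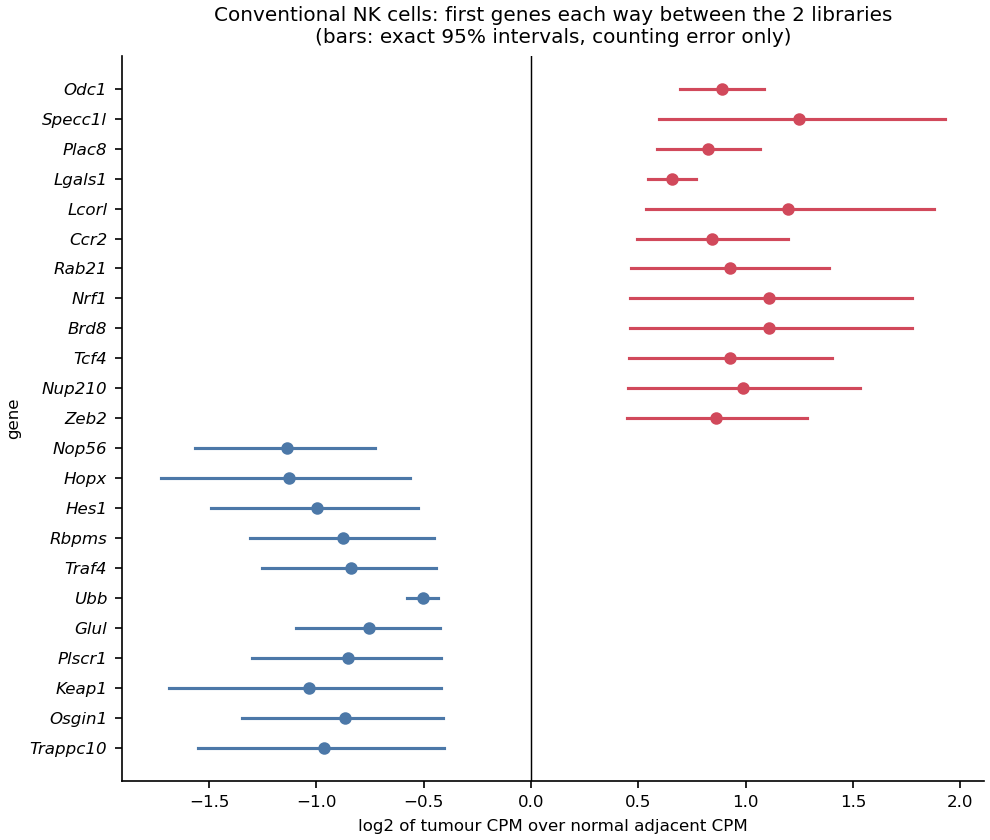
Log2 ratio of CPM in tumour over normal adjacent conventional NK cells for the genes ranked first each way (points), with exact intervals of counting error (bars). The genes were ranked on these values, so no bar reaches 0 by choice.

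The residency list split between the libraries, with 7 of 14 genes higher and 7 lower in tumour members, where 47.9% of 7610 genes were higher. Itga1 stood at 54.1 and 27.0 CPM, a ratio of 0.498 (0.308 to 0.783), from 36 and 16 cells, whereas its ratio was 1.30 (1.14 to 1.48) in lymphocytes rich in Gzmc and Gzmf. Rgs1, a regulator of chemokine receptor signalling, stood at 2104 and 1523 CPM, a ratio of 0.724 (0.680 to 0.770). Cxcr6 stood at 29.6 and 55.9 CPM, with 44.6% of the tumour UMIs in 1 cell. Of 8 chemokine receptors, 6 were higher in tumour members (median 0.65), 4 of them past 1.5-fold, where 9.25% of genes were, but 1 cell held 65.1% of the tumour UMIs of Ccr7. The median was 0.22 without members in which other cells' markers took at least 0.3% of UMIs, 0.23 as a mean over cells, 0.03 with 2 UMIs sufficing for the choice and 0.01 in thinned cells.

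Interferon-induced genes were higher in 12 of 16 cases in tumour members (median 0.60, and 0.03 in thinned cells), 9 of them past 1.5-fold, where 9.25% of genes were. Zbp1, a nucleic acid sensor found in 51 and 52 members, stood at 46.2 and 78.9 CPM, a ratio of 1.71 (1.21 to 2.41). Gbp2 stood at 20.2 and 42.9 CPM from 23 and 28 members, and Ifi27l2a at 59.1 and 176 CPM, with 23.3% of the tumour UMIs in 1 cell. Ifit1 and Rsad2 were held mostly by 1 cell in each library, and Isg15 (169 and 181 CPM) had an interval that included 1. Cell cycle genes were higher in 14 of 15 cases (median 0.40), where 47.9% of genes were, but their median was -0.18 in cells thinned before the choice, and Mki67 was found in 8 and 9 members.

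Of 16 stress genes 7 were higher and 9 lower (median -0.09), where 47.9% of 7610 genes were higher, and single cells weighed on them. Jun stood at 569 and 279 CPM and Atf3 at 208 and 70.9 CPM, with 33.8% and 65.1% of the normal adjacent UMIs in 1 cell, and Hspa1a at 23.8 and 115 CPM with 79.1% of the tumour UMIs in 1 cell. Of 13 activation genes, 8 were higher (median 0.29), against the same 47.9%. Among them was Nr4a1, a gene of recent receptor signalling, at 269 and 373 CPM, a ratio of 1.39 (1.20 to 1.61). Of 14 inhibitory receptor and checkpoint genes 10 had at least 20 UMIs, among them Cd96 in 62 and 34 members and Cd274 in 38 and 41. Pdcd1 (PD-1) had a UMI in 0% and 0.602% of thinned members (0.909% and 1.18% unthinned). Among thinned B lymphocytes the shares were 1.03% and 0% (0.990% and 0% unthinned), and among thinned T lymphocytes 23.3% and 20.9% (49.9% and 40.4% unthinned). Oxidative phosphorylation genes (6 of 16 higher, median -0.03) and glycolysis genes (5 of 14 higher, median -0.05) held no gene past 1.5-fold.

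Transcripts of other cells moved with the library. The 8 B cell markers, none of them at 0 in either library, took 0.0252% and 0.0842% of the members' UMIs, and 0.00974% and 0.0324% of those of T lymphocytes. Igkc, an antibody light chain, stood at 89.4 and 386 CPM in members and 31.1 and 159 CPM in T lymphocytes. The 10 macrophage markers took 0.0979% and 0.170% of the members' UMIs, the 8 neutrophil markers 0.0160% and 0.0152% and the 8 epithelial markers 0.0780% and 0.00998%, where 1 normal adjacent cell held 96.1% of the Krt8 UMIs. The 10 dendritic markers, which include H2-Aa, H2-Ab1, H2-Eb1 and Cd74, took more, at 0.473% and 0.499%. In T lymphocytes they took 1.32% and 1.26%. Of the members, 218 and 145 had at least 3 UMIs summed over the 10 dendritic markers. Mcpt8, Ms4a2 and Fcer1a of the mast cell list were at 0 in both libraries, as were the endothelial genes Cdh5 and Kdr. The part of such RNA in the differences between libraries was not tested. In an alternative, members were left out where B cell, neutrophil, macrophage, epithelial, or fibroblast and endothelial markers, each list alone, took at least 0.3% of UMIs. H2-Aa, H2-Ab1 and H2-Eb1, standing in for the dendritic list, had the same limit, and the mast cell list had none. This left 198 and 144 members. The share of lymphocytes then differed by -2.51 points (-4.56 to -0.443) and 196 and 200 genes lay past 1.5-fold.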

How the data were processed

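Single-cell RNA was measured in 2 libraries, 1 of normal adjacent prostate and 1 of prostate tumour. The deposited matrices hold whole-number UMI counts per gene and cell made with Cell Ranger 4.0.0, per the file headers. R 4.0.3, Seurat 3.2.2 and GRCh38, a human build, are listed per the submitters' processing notes, while the 32285 genes are mouse genes. The mouse build used is not given in the sources used here.

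Cells with at least 200 genes and at most 20% mitochondrial UMIs were kept. Members and comparison classes were chosen by UMI thresholds, summed per library and compared as CPM with exact Poisson, conditional binomial, Clopper-Pearson and Newcombe intervals (Python 3.11.15, NumPy 2.4.6, SciPy 1.17.1, matplotlib 3.10.9). No doublet caller was run, and members with RNA of other cells were kept, with alternatives that leave them out. On simulated counts 96.0% of the intervals covered the true ratio over 5275 genes. The simulation drew Poisson counts, which the intervals assume, so it checks the code only. It cannot show the coverage for genes whose UMIs lie mostly in single cells.

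Genes named against a class had at least 50 UMIs in members and were ranked by the interval bound nearest 1 in the weaker library, 12 higher and 8 lower against T lymphocytes and 8 each way otherwise. Genes named between libraries also needed 50 CPM in the higher library, 10 cells, no cell with over 20% of the UMIs and 5% of the level of the highest class, and the first 12 each way were taken. Mitochondrial, ribosomal, haemoglobin, receptor segment and sex-linked genes were left out. Some genes that the rule names are not reported here. Genes of the choice and of 29 lists, of which 355 of 360 genes were in the files, were named as well. The members and lists were chosen with earlier results of these data known.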

Additional observations from a re-analysis of the deposited data

How the results depend on the processing

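No paired analysis was possible because each group has 1 library. With cells thinned to 2000 UMIs before the choice, 144 and 111 members, 51 higher and 84 lower genes were left, and Tox (-0.39), Ccr7 (-0.13), Cd274 (-1.29), Egr1 (0.27) and Stmn1 (-0.035) changed the sign of their log2 ratio between libraries. Without members carrying at least 3 UMIs of another cell type, 17 and 20 members were left, the share of lymphocytes differed by 0.249 points and that of cells kept by -0.0163 points, and 30 genes were higher and 33 lower. Only H2-Aa, H2-Ab1 and H2-Eb1 served there as dendritic markers, and mast cell markers were not used. In that setting 398 genes lay below T lymphocytes, 264 above and 351 below lymphocytes rich in Gzmc and Gzmf and 316 below the other CD3-low cells, against which H2-Eb1 (-0.96 and -0.80) and H2-Aa (-1.02 and -1.86) changed sign. Leaving out the 5% of members with most UMIs gave 204 lower genes. Leaving out members with at least 0.3% of other cells' markers, an alternative chosen after seeing the data, gave 200 lower genes, and 215, 158 and 103 genes below the 3 classes. Lilrb4a (-0.28), H2-Eb1 (-0.052 and -0.15) and H2-Aa (-0.089 and -0.42) changed sign there. The mean over cells gave 117 genes below lymphocytes rich in Gzmc and Gzmf and -0.074 for Il7r. With 2 UMIs sufficing, Il7r (-0.73), Ccr7 (-0.26) and Ccr1 (-0.11) changed sign. The cause was not tested. The 24 genes named between libraries kept their direction in each alternative in which they were measured, 10 to 12 per gene. They were ranked on these values and the alternatives share cells, so a kept direction is weak support. In the alternative nearest 0, Glul went from -0.75 to -0.024, Brd8 from 1.10 to 0.14, Plscr1 from -0.85 to -0.16 and Zeb2 from 0.86 to 0.16. Others changed less, such as Lcorl, from 1.19 to 1.01. Of 3146 alternative values of single genes between libraries, 2856 moved by less than counting error and 280 by more. A further 10 changed sign in genes past 1.5-fold with the members as first chosen. Sign changes of genes under 1.5-fold were not counted apart and lie among the 2856 and 280. These counts therefore do not show how often direction held. The genes named above as changing sign between libraries are likewise only those past 1.5-fold. Medians ranged from 0.03 to 0.74 for interferon-induced, 0.01 to 0.88 for chemokine receptor and -0.18 to 0.61 for cell cycle genes.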
